A study of Mus musculus and Homo sapiens with 6 samples.

Results

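Open chromatin was examined at 7 mouse genes, the genes for 6 matrix proteins of mesenchymal cells and the gene for vimentin: Fn1, Tgfbi, Postn, Sparc, Tnc, Thbs1 and Vim. The genes were taken from a fixed list, and each peak that overlapped a gene or the 20 kb to either side of it was counted, in mm10 coordinates. They are 7 of the 21883 protein-coding genes placed on chromosomes in the RefSeq gene table used. The peaks came from ATAC-seq, which uses the Tn5 enzyme to tag accessible DNA, of NMuMG cells, an epithelial line from mouse mammary gland. There were 4 libraries, made from 25000, 50000, 75000 and 100000 cells of the same line. All 4 carry the genotype label NMuMG and the time label 0h, and their labels name no agent added to the cells. The cells were grown in DMEM with 10% FBS, were kept under 10 passages and were collected with trypsin. The series was made to tune the protocol, so the libraries differ, as labelled, in cell number only, and 1 library at each number gives no replicate error and allows no test. A further 2 samples, labelled MDA-MB-231_GATA3 and of a human cell line, were not analysed here.

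Fibronectin, encoded by Fn1, is a secreted glycoprotein that cells assemble into fibrils through integrins. Tgfbi and Postn encode related adaptor proteins of the matrix, and Sparc, Tnc and Thbs1 encode matricellular proteins, which act on adhesion and growth factors in the matrix more than they build it. Vimentin is the intermediate filament protein typical of mesenchymal cells. In epithelial-mesenchymal transition, which NMuMG cells are widely used to study because TGF-beta induces it in them, fibronectin and vimentin are classical markers of the mesenchymal state.

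Each library is given as a list of 38878 to 45530 peaks with a whole-number score of 8 or above, assigned by the authors. The score ranks peaks within a list, and its percentile is the share of peaks of that list with a lower score, with equal scores counted at their midpoint. No read counts come with the lists, so depth is unknown, and a site without a peak may have signal below the score of 8. The lists come from bulk cells, so a weakly open site in many cells and a strongly open site in a few cannot be told apart. The epithelial label was checked against 14 marker genes. A peak within 1 kb of an annotated start or, for genes without an entry in the promoter table (here Cdh1, Krt19, Esrp1 and Grhl2), of either annotated end was found in all 4 libraries at 7 of them, beside 44.9% of all protein-coding genes. The 7 included the epithelial transcription factor gene Elf3, the simple keratin genes Krt8, Krt18 and Krt19 and the E-cadherin gene Cdh1, and no library had such a peak at Epcam, Cldn3, Cldn7, Esrp1 and Grhl2. Of 12 fibroblast markers, Col1a1 alone had such a peak in all 4 libraries. The other 11, the PDGF receptor genes Pdgfra and Pdgfrb among them, had none in any library, beside 47.4% of all protein-coding genes. Of the 12, Pdgfrb, Thy1, Col1a1, Dcn, Lum and Fap also lack an entry in the promoter table. The peak of Col1a1 may thus lie at either end of the gene. The fibroblast counts were not tested. A count of 7 of 14 is near the share of all genes and says little about the label. Krt18, Krt19, Cdh1, Cldn7, Esrp1 and Grhl2 were singled out after their values were seen.

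Promoter sequences from RefSeq (GRCm38.p6, the assembly that mm10 names) were matched for 5 of the 7 genes. The entries of Fn1 and Thbs1 were not among those used. The 250 bases before the start are shown for the genes with an open start (Vim and Sparc) and for those with none (Tnc, Tgfbi and Postn), since the results below turn on this contrast. Each is written 5′ to 3′ on the strand of the gene. For Tnc and Postn, which have 2 annotated starts each, the downstream start is shown. Capitals mark 4 short promoter motifs on either strand. The first is the TATA box with the letters TATAAA. The second is the CCAAT box, named for its letters. The GC box was searched as GGGCGG. The AP-1 site was searched as TGANTCA, which reads alike on both strands.
Vim (chr2:13574061-13574310, + strand): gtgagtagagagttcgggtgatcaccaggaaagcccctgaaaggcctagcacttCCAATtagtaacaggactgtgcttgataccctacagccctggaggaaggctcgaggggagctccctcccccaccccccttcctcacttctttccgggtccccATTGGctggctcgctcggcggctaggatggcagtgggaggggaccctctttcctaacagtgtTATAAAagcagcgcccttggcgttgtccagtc
Sparc (chr11:55420081-55420330, - strand): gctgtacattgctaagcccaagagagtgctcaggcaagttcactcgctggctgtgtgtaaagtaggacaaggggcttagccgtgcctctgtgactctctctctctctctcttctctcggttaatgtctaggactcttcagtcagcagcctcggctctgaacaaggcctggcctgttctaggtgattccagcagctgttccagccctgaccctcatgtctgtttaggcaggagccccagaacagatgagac
Tnc (chr4:64046937-64047186, - strand): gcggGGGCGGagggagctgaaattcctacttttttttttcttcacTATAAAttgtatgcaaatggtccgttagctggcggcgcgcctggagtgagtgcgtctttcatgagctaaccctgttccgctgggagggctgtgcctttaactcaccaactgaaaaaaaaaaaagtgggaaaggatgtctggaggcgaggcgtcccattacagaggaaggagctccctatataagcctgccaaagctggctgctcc
Tgfbi (chr13:56609336-56609585, + strand): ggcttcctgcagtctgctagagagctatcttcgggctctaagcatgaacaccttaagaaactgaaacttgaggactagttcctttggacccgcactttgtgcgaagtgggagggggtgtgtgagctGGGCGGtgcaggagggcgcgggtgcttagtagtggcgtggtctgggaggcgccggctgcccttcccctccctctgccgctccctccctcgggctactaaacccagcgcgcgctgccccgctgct
Postn (chr3:54360857-54361106, + strand): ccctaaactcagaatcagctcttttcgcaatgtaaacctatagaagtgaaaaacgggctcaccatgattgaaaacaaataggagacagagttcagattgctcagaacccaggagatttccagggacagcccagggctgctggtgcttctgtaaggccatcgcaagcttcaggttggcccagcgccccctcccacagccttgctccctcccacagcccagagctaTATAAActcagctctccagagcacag

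The genes fell into 3 kinds. Fn1, Vim, Sparc and Thbs1 had a peak at the start in all 4 libraries, Tnc had 2 low-scoring peaks inside the gene in 1 library, and Tgfbi and Postn had no peak in the gene or within 20 kb in any library. A start peak is one that overlaps the 1 kb to either side of a start in the promoter table or, for a gene without an entry there, of either annotated end. It was found in all 4 libraries at 4 of the 7 genes, beside 44.9% of the 21883 protein-coding genes. It was found in no library at 3 of the 7, beside 47.4% of all. In each single library the same 4 genes had a start peak, beside 47.5%, 49.5%, 49% and 50% of all protein-coding genes from 25000 to 100000 cells. Counts of 7 genes do not set them apart from genes in general. Leaving out a library could not change the number, since each gene had a start peak in all 4 libraries or in none. When only peaks at or above the median score of each list were kept, 2 of the 7 genes had a start peak in all 4 libraries. These were Vim and Thbs1. At 75000 cells Thbs1 passed only through a peak of score 15 at 118110451 to 118111000, inside the non-coding gene Gm13986. The peak nearer to Thbs1 scored 12 in that library.

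**Figure D1:**
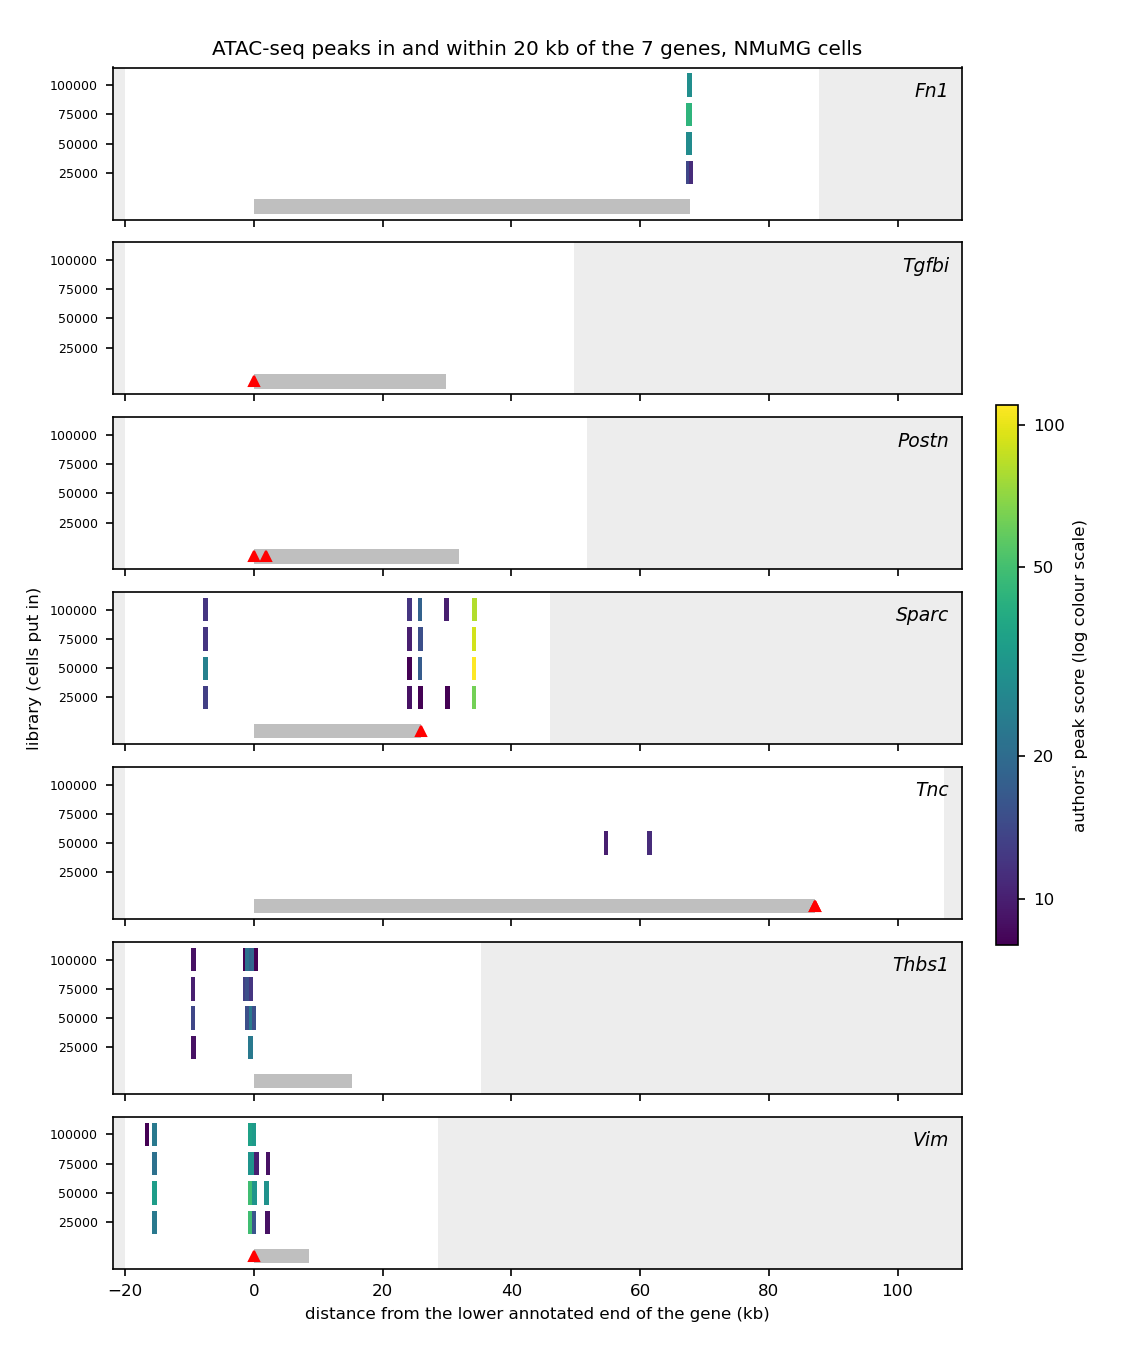
Peaks of the 4 libraries in and within 20 kb of each gene, drawn by distance in kb from the lower annotated end of the gene (grey bar), with 1 row per library and colour for the score on a log scale. Red triangles are annotated starts in the promoter table, pale areas lie outside the 20 kb, and peaks narrower than 0.7 kb are drawn 0.7 kb wide. Peaks line up over the 4 libraries at Fn1, Sparc, Thbs1 and Vim, and the panels of Tgfbi and Postn are empty.

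Fn1 (chromosome 1, 71585473 to 71653280) had a single open region in its whole window, at its upper end. Transcription of Fn1 is known to begin at that end, although the tables used give no strand for it. The region, at 71652551 to 71653600, was 1050 bp wide and held 2 peaks in the 25000-cell library and 1 in each of the others. Its highest score was 14, 28, 44 and 29 from 25000 to 100000 cells. These scores stood at the 46.6, 73.9, 89.0 and 74.7 percentiles of their lists, so the site ranked lowest in the 25000-cell library and highest in the 75000-cell library. The last base of the gene lay inside a peak in all 4 libraries. The lower annotated end of the non-coding gene Apol7d, whose strand the tables used do not give, lies 55 bp beyond that base, so the peak lies at the ends of both genes. No peak lay elsewhere in the 67.8 kb of the gene or within 20 kb to either side. The next region below, 27.8 kb away at 71556701 to 71557650, lies at the start of the purine synthesis gene Atic and scored 63, 61, 63 and 67.

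Vim (chromosome 2, 13574311 to 13582826) had the highest-ranking start of the 7 genes. An open region at 13573351 to 13574700 held 2 overlapping peaks in each library, the first upstream of the start and the second across it. At 75000 cells the first also ran past the start. The highest score of the region was 49, 49, 31 and 36 from 25000 to 100000 cells, at the 93.4, 89.9, 79.1 and 81.8 percentiles. The second peak scored lower, with 16 at 25000 cells, 31 at 50000 cells, 10 at 75000 cells and 33 at 100000 cells. The start base lay inside a peak in all 4 libraries, as it did at 88.7% of the 8029 genes with a table start and a start peak in all 4. All 250 bases shown above for Vim lay inside a peak in each library. By its mean percentile, the start ranked at the 64.2 percentile of the 9823 genes with a start peak in all 4 libraries.

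Away from its start, Vim had 3 further regions. The region at 13575901 to 13576550 inside the gene, 1.91 kb downstream of the start by its centre, scored 30 at 50000 cells, 9 at 25000 and 9 at 75000 cells, and was not listed at 100000 cells. It thus ranked at the 76.3 percentile in 1 library and at the 15.8 and 16.2 percentiles in 2 others. A region at 13558451 to 13559100 was listed in all 4 libraries with scores of 23, 34, 21 and 23. Its centre lay 128 bp from the annotated start of the non-coding gene Gm9875 and 15.5 kb from that of Vim. The fourth, at 13557301 to 13557650, had a score of 8 at 100000 cells only and was the farthest inside the 20 kb.

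Sparc (chromosome 11, 55394159 to 55420080, minus strand) had 5 regions, and its strongest was away from the start. No other of the 7 genes had as many, but Sparc was level with Vim and Tnc in gene bodies only (2 each), with Vim above the median score (3 each) and with Vim and Thbs1 for peaks resized to 200 bp (5 each). The region at 55427951 to 55428750, centred 8.27 kb upstream of the start and outside annotated genes, scored 63, 109, 92 and 81 from 25000 to 100000 cells. These scores stood between the 97.0 and 99.2 percentiles of their lists. Its mean percentile ranked at the 97.7 percentile of the 25782 regions found in all 4 libraries outside the mitochondrial chromosome. It was the highest-ranking region at any of the 7 genes. A highest-ranking region that misses the start window is not rare, since it was found at 57.2% of the 11638 genes with a table start and a region in all 4 libraries in the window.

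The start of Sparc itself ranked low. Its region, at 55419601 to 55420200, scored 8, 17, 15 and 18, and its mean percentile stood at the 5.71 percentile of genes with a start peak in all 4 libraries. At 25000 cells the peak had the lowest score a list can hold. It lay wholly inside the gene, downstream of the start base, which lay inside a peak in the other 3 libraries. Of the 250 bases shown above for Sparc, 0, 70, 120 and 70 lay inside a peak. A region at 55417851 to 55418550, 1.88 kb downstream of the start, scored 9, 8, 10 and 12. A region at 55423751 to 55424250, 3.92 kb upstream, was listed with scores of 8 at 25000 and 10 at 100000 cells and in neither other library. The region beyond the lower end, at 55386301 to 55386900, scored 13, 25, 12 and 12. It lay 2298 bp from the start of the non-coding gene Gm31842 and 33.5 kb from that of Sparc.

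Thbs1 (chromosome 2, 118111876 to 118127133) encodes thrombospondin-1, an activator of latent TGF-beta. It had its open regions at and below its lower end, where its transcription is known to begin, and none in the rest of the gene or above it. The region over that end, at 118111001 to 118112100, scored 23, 23, 12 and 19 from 25000 to 100000 cells. The first base of the gene lay inside a peak at 50000 and 100000 cells, while at 25000 and 75000 cells the peak stopped short of it. The adjoining region at 118110101 to 118111000 was not listed at 25000 cells and scored 15, 15 and 21 in the other libraries. The highest peak within 1 kb of the gene's lower end, taken over both regions, scored 23, 23, 15 and 21. The non-coding gene Gm13986 runs the other way from a start 674 bp below Thbs1, so both regions lie beside 2 starts and cannot be told apart by gene. The start base of Gm13986, at 118111202, lay inside a peak in all 4 libraries, unlike the first base of Thbs1. The remaining region, at 118102051 to 118102600 inside Gm13986, scored 9, 14, 10 and 9.

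Tnc (chromosome 4, 63959785 to 64047015, minus strand) encodes tenascin-C, a large multimeric glycoprotein, and had no peak at either of its 2 annotated starts. Its 2 peaks, at 64014151 to 64014700 and 64020901 to 64021300, were listed at 50000 cells only, with scores of 10 and 11. They lay inside the gene, 32.5 and 25.8 kb from the nearer start, where the non-coding gene 8030451A03Rik overlaps it. Without the 50000-cell library, Tnc had no region in its window. The nearest region found in all 4 libraries lay 29.1 kb upstream, at 64076101 to 64076850, outside the 20 kb, with scores of 16, 9, 20 and 16.

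Tgfbi (chromosome 13, 56609586 to 56639359) and Postn (chromosome 3, 54359267 to 54391041), whose proteins share fasciclin domains, had no region in their windows. This was so for 23.8% of all protein-coding genes. Among genes whose length was within 1.5-fold of that of Tgfbi it was so for 15.6% of 4630, and of that of Postn for 15.5% of 4552. The 2 genes differed in what lay farther out. The nearest region to Tgfbi was 25.1 kb above it, at 56664451 to 56665000, with scores of 8, 10 and 10 at 25000, 75000 and 100000 cells and none listed at 50000 cells. The nearest found in all 4 libraries was 52.5 kb above, with scores of 15, 25, 12 and 22. The nearest to Postn was 114 kb below, in Trpc4, with a score of 8 at 50000 cells only, and 12.7% of protein-coding genes were at least as far from any region. The nearest found in all 4 libraries was 301 kb above, over Supt20, with scores of 42, 82, 35 and 49, a distance that 10.1% of genes reached or passed.

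The library in which a start ranked highest differed between the genes. The start of Fn1 ranked highest at 75000 cells, that of Vim and that of Thbs1 at 25000 cells, and that of Sparc at 100000 cells. Of the 4 start peaks, that of Vim ranked highest in 3 libraries and that of Fn1 at 75000 cells. The order of the 4 starts by mean percentile was Vim at 86.0, Fn1 at 71.1, Thbs1 at 62.1 and Sparc at 40.7. At 75000 and 100000 cells the value of Thbs1 came from the peak inside Gm13986. The region over the end of Thbs1 alone had a mean percentile of 58.0. Neighbours in that order overlapped in their range over the libraries. Vim, with 79.1 to 93.4, did not overlap Thbs1, with 48.5 to 71.0, or Sparc, with 5.37 to 55.4. With 1 library per cell number, no order was tested against replicate spread.

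**Figure D2:**
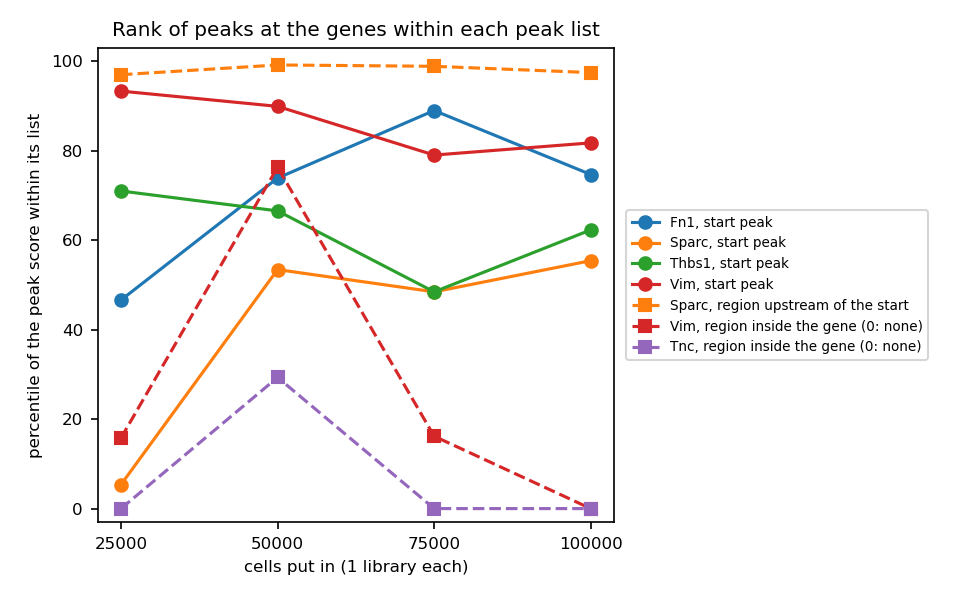
Percentile of the peak score within its own list (0 where no peak is listed) for start peaks (circles) and 3 regions away from starts (squares), by the number of cells put in. The upstream region of Sparc stays at 97.0 or above in all 4 libraries, while its start lies between 5.37 and 55.4, and the region inside Vim reaches 76.3 at 50000 cells only.

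Peaks in the 7 windows, which span 546 kb, numbered 14, 16, 13 and 16 from 25000 to 100000 cells. This came to 2.56, 2.93, 2.38 and 2.93 peaks per 100 kb, beside 2.20, 2.45, 2.32 and 2.54 in the windows of all protein-coding genes. With overlapping peaks of a list merged first, the numbers were 11, 13, 11 and 12, so no order of the libraries is read from them. Merged over the lists, the windows held 15 regions, with 5 at Sparc, 4 at Vim, 3 at Thbs1, 2 at Tnc and 1 at Fn1. The median protein-coding gene had 3 regions in its window and the middle 50% had 1 to 5, so that Sparc stood at the 76.0 percentile, Vim at the 66.7, Thbs1 at the 55.3, Tnc at the 42.7 and Fn1 at the 30.0.

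**Figure D3:**
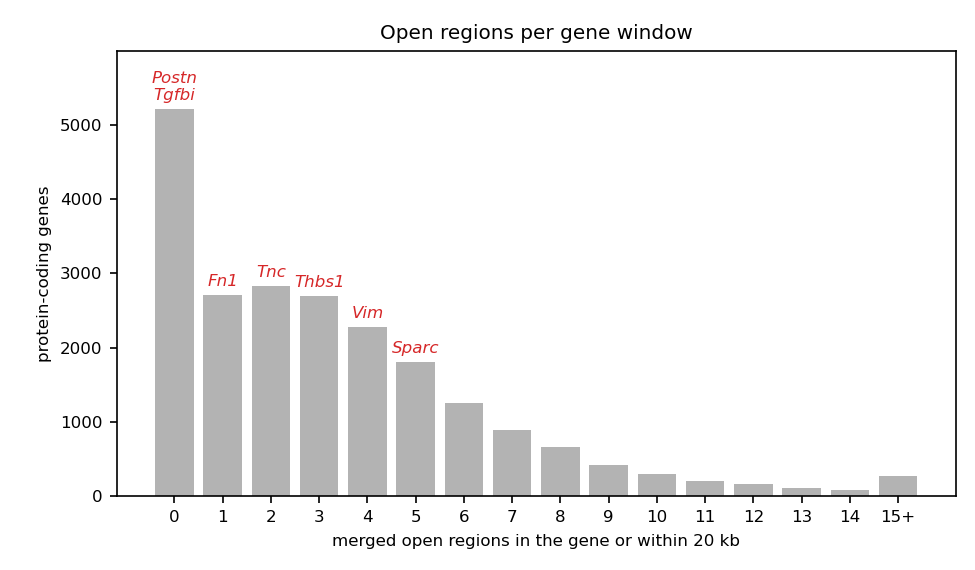
Number of merged open regions in the gene or within 20 kb (x axis) against the number of protein-coding genes (bars), with the 7 genes written above their bar. Tgfbi and Postn stand in the bar at 0 regions and Sparc at 5.

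Of the 15 regions, 9 had a peak in all 4 libraries, or 60.0% (95% Clopper-Pearson interval 32.3 to 83.7, counting error only), beside 46.3% of the 55702 merged regions of the genome. The 9 were 4 at Sparc, 2 each at Vim and Thbs1 and 1 at Fn1. Read by their highest score, 4 of the 5 regions with 25 to 49 were found in all 4 libraries, and so was the 1 region with 50 and above. The exception was the region inside Vim, which scored 30 at 50000 cells. In the genome 96.6% of the regions with a highest score of 25 to 49 and 99.98% of those with 50 and above were found in all 4. Of 5 regions with a highest score of 10 to 14, 2 were found in all 4 libraries, one at Sparc and one at Thbs1, beside 9.35% in the genome. The lower limit of the interval for that share, 5.27%, is below the share in the genome.

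Start peaks were next set beside the base composition of the promoters, which the choice of genes did not use. Over the 21262 starts of protein-coding genes in the promoter table, the 300 bases from 250 before to 50 after the start held a median of 23 CpG dinucleotides where a peak was found in all 4 libraries and 4 where none was. Sparc and Tgfbi went against this pattern in opposite directions. The Sparc promoter held 4 CpG, and of the 3034 starts with 3 to 5 CpG, 10.0% had a peak in all 4 libraries as it did. The Tgfbi promoter held 22 CpG, and of the 7640 starts with 20 or more, 76.8% had a peak in all 4 libraries and 15.4%, like Tgfbi, had none in any. The starts of Tnc held 10 and 16 CpG, in groups where 39.2% and 23.1% had no peak. Vim, with 11 CpG, was open in a group where 51.3% of starts were open in all 4. The starts of Postn held 4 and 5 CpG, in the group where 82.5% had no peak. Each of these is the state of a single gene and was not tested.

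**Figure D4:**
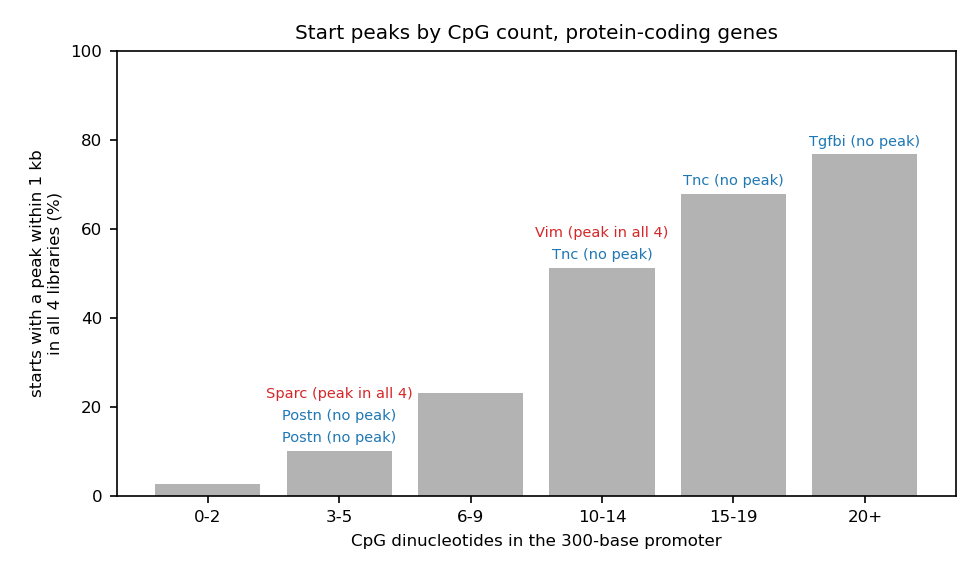
Share of starts of protein-coding genes with a peak within 1 kb in all 4 libraries (bars, %), by the number of CpG dinucleotides in the 300-base promoter. Gene names mark the group of each annotated start of the 5 genes in the table, red with a peak in all 4 libraries and blue with none; Sparc is open in a group at 10.0% and Tgfbi has no peak in a group at 76.8%.

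Short motifs were counted in the same 300 bases on both strands, over 7 starts of the 5 genes, as letters and not as sites. The TATA box letters (TATAAA) begin 32 bases before the start of Vim and 26 before the downstream start of Postn, the first an open promoter and the second one without a peak. They are found in 13.6% of the 32851 promoters of the table. Both Tnc starts also hold them, from 1 shared place 205 and 126 bases before the starts. Only these exact letters were searched, so the like letters tatataag near the end of the Tnc sequence shown were not counted. Vim has the CCAAT letters 2 times, once on each strand, beginning 196 and 94 bases before the start, and Postn has them once beyond its upstream start, beside 37.4% of promoters with at least 1. GC box letters (GGGCGG) are in the promoters of Tgfbi and Tnc, neither of which had a start peak, and in 35.7% of all. The letters of E-boxes (CANNTG) are in Sparc and Tnc, with a CACCTG form, which is counted among them, across the start of Sparc, beside 72.3% and 20.2% of promoters. A short Smad sequence (CAGACA) is in Sparc and Tnc, beside 21.0%. The letters of AP-1 (TGANTCA), TEAD (GGAATG) and ETS (CCGGAAG) sites are in none of the 7, beside 7.81%, 14.7% and 8.86% of promoters. The promoters of Vim and Sparc, both with a start peak, share none of these letters.

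Other genes of the matrix and of its receptors were set beside the 7, from lists that share no gene with them. The lists were not tested against each other. Of 18 matricellular genes, relatives and clearance receptors, 4 had a start peak in all 4 libraries, 1 in some and 13 in none. The shares over all protein-coding genes were 44.9% in all 4 libraries and 47.4% in none. Ccn2 (55, 56, 50 and 56) and Ccn1 (58, 54, 46 and 57), which encode matricellular proteins of the CCN family, ranked highest. Thbs2 and Thbs4, relatives of Thbs1, had no start peak in any library, and neither did Sparcl1, the closest relative of Sparc. Thbs3, another thrombospondin gene, had one in all 4 libraries, with scores of 40, 31, 31 and 33. Of 22 genes of fibrils and elastic fibres, 4 had a start peak in all 4 libraries, 3 in some and 15 in none, beside the same shares. Efemp2, which is needed for elastic fibre assembly, scored 53, 43, 46 and 67 and Fbln2, a fibulin gene, 32, 34, 23 and 43. The fibrillar collagen genes Col1a2 and Col3a1 had none, while Col1a1 had one in all 4 libraries (33, 30, 29 and 34) and Col5a1 in the 3 from 50000 cells up (13, 11 and 17). Sparcl1, Thbs3, Col1a1 and Col5a1 were singled out after their values were seen. Of the genes named here, Ccn2, Sparcl1 and Col1a1 have no entry in the promoter table, so for them either annotated end counted.

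Of 18 genes for matrix crosslinking and turnover, 8 (44.4%) had a start peak in all 4 libraries, 4 in some and 6 in none. Here and for the lists that follow, the shares over all protein-coding genes were 44.9% in all 4 libraries and 47.4% in none. P4ha1, which encodes a prolyl hydroxylase of collagen, scored 36, 62, 73 and 94, and the plasminogen activator gene Plat 30, 63, 42 and 52. The crosslinking enzyme genes Lox and Loxl1 had none. Plat, Lox and Loxl1 have no entry in the promoter table, so for them either annotated end counted. Of 16 integrin and other receptor genes, 10 had a start peak in all 4 libraries, 1 in some and 5 in none. Cd47, a thrombospondin receptor gene, scored 36, 62, 60 and 51. Itga3, an integrin gene, scored 44, 38, 46 and 51. The genes of the fibronectin receptor, Itga5 and Itgb1, had start peaks in all 4 libraries, with 20, 20, 10 and 28 for Itga5. The integrin genes Itga4 and Itga8 had none in any. Of 18 genes for intermediate filaments and cytoskeletal partners of vimentin, 9 had a start peak in all 4 libraries, 3 in some and 6 in none. The lamin gene Lmna (80, 100, 82 and 78) and the actinin gene Actn1 (62, 70, 64 and 79) ranked highest there. Des and Gfap, which encode relatives of vimentin in muscle and in glia, had none. Itga5 and Itgb1 were singled out after their values were seen.

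**Figure D5:**
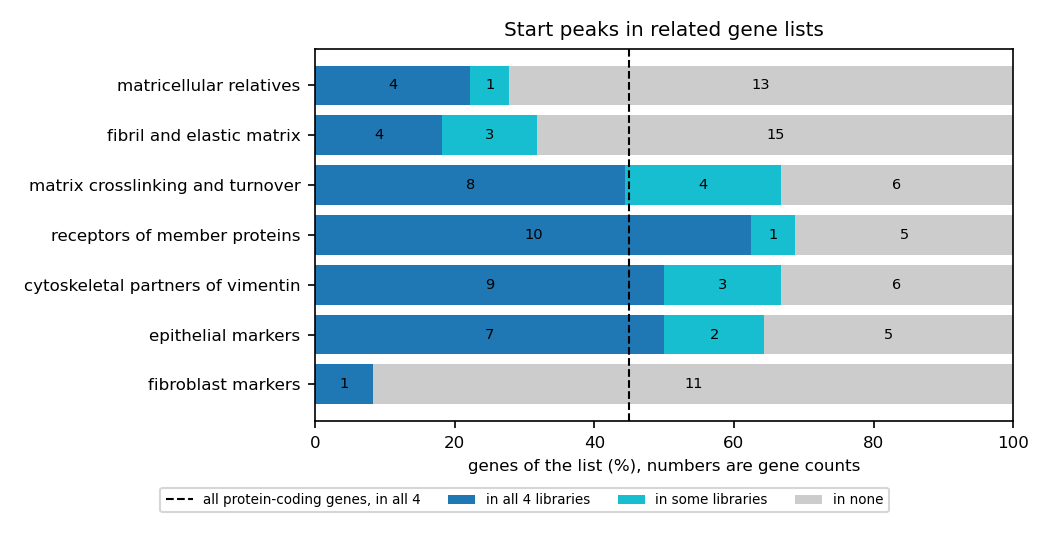
Share of the genes of each list (x axis, %) with a start peak in all 4 libraries, in some or in none, with gene counts written in the bars and the 44.9% of all protein-coding genes as a dashed line. The share in all 4 libraries is 22.2% for the matricellular genes, 18.2% for fibrils and elastic fibres and 62.5% for the receptors.

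The genes whose start peaks ranked most like those of the 7 were found by the largest difference in percentile over the 4 libraries, among genes with a start peak in all 4. For Vim they were Nme2 (45, 51, 29 and 36) and Ccnd1 (51, 44, 31 and 38), within 2.20 and 2.50 points, and 38 genes were within 5 points. For Fn1 they were Slc35e2 and L3mbtl2, within 3.35 and 4.40 points. For Thbs1 they were Zswim8 and Acad10, within 3.57 and 3.73 points. For Sparc they were Eif4enif1 and Gm51877, each within 3.00 points and with the same scores (8, 16, 15 and 18). Whether these 2 genes share the same peaks was not checked. The genes within 5 points numbered 3 for Fn1, 9 for Thbs1 and 2 for Sparc. Each likeness rests on 4 values.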

How the data were processed

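Each of the 4 NMuMG libraries was given by the authors as a deposited list of peaks, each with its position and a score in whole numbers. How the score was computed is not stated. Per the submitters' processing notes, Bowtie 0.12.8, Picard 1.107, bedtools 2.17.0, cutadapt and SAMtools were used, and the builds were hg19 and mm10, of which mm10 is the mouse build. The peak caller, its settings and any Tn5 shift of reads are not given in the sources used. The score served to describe and rank peaks within a list. With 1 library per cell number, there is no test and no replicate error, and depth is unknown.

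Peaks overlapping a window by at least 1 bp were counted, and the 4 lists were merged where they overlapped. Gene positions came from RefSeq for GRCm38.p6, and starts and promoter sequences from a RefSeq table with 32851 promoters, which held 17491 of 21883 protein-coding genes; both annotated ends were used for the rest. The members and lists were chosen with earlier results of these data known. Regions are given by gene as the start region, the highest-ranking and those of a single library. In each related list, the 2 highest-ranking genes open at the start in all 4 libraries and up to 2 with no start peak were named. Alternatives were other windows, score filters, resized peaks and leaving out libraries. The overlap functions were tested on simulated data. Python 3.11.15, numpy 2.4.6, pandas 2.3.3 and scipy 1.17.1 were used.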

Additional observations from a re-analysis of the deposited data

How the results depend on the processing

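Among the alternatives tried, the number of genes with a start peak in all libraries stayed at 4 with a window of 500 bp and with equal numbers of peaks. It was also 4 with a window of 2 kb, with either gene end, with peaks anywhere within 20 kb and without each library. Those settings could not change it. The starts of the 4 genes are annotated ends, and no other gene had peaks within 20 kb in more than 1 library. The number was 2 when peaks under the median score of their list were dropped. The 15 regions became 8 in gene bodies only, 34 within 50 kb and 9 above the median score, and 13 to 15 without 1 library. Only 10 had the member itself as the nearest gene, with Thbs1 going from 3 to 1, Vim from 4 to 2 and Sparc from 5 to 4. Peaks per library, from 25000 to 100000 cells, were 7, 9, 6 and 6 in gene bodies, 26, 28, 28 and 34 within 50 kb, and 5, 9, 6 and 9 above the median score. The share of regions found in all libraries lay between 33.3% and 62.5% with all 4 libraries kept, and between 60.0% and 71.4% without 1 library. The second range asks for a peak only in the libraries that are left, a looser condition, so it cannot be read against the first. Within 50 kb Tgfbi gained 4 regions and Postn none. The crosslinking and turnover list had 4 genes above the median score in place of 8, and no other list moved by over 1.5 times. The windows and filters change what is counted by construction. No paired analysis was possible because each cell number has 1 library. The lists stop at a score of 8 and carry no depth, which limits every statement that a peak is missing.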
